A study of Mus musculus with 4 samples.

Results

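TRBV13-2 is the mouse V segment that encodes the Vβ8.2 chain of the T-cell receptor. Receptors built with it were followed in 4 bulk TRB libraries of CD8+ T cells from livers carrying metastases of MC38, a colon adenocarcinoma line that the labels call melanoma. Members were all listed rearrangements whose top V hit was TRBV13-2, and no measured abundance entered the choice. They numbered 33924 of 261962 rearrangements, of which 30956 were in frame, 2867 were out of frame and 101 were in frame with a stop codon. In-frame sequences are called clonotypes here, each defined by V segment, J segment and CDR3 nucleotides, and there were 238470 of them over all V segments. The out-of-frame rearrangements cannot make a receptor chain and served as the unselected comparison.

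A β chain is assembled in the thymus by joining a D to a J segment and then a V to the DJ segment. Bases are trimmed from the segment ends and others are inserted at both joints, and the resulting loop, CDR3, makes most of the contacts with peptide. A cell whose first rearrangement is out of frame can rearrange its other allele, so out-of-frame sequences travel in cells that were selected through a different receptor. The mouse Vβ8 family consists of TRBV13-1 (Vβ8.3), TRBV13-2 (Vβ8.2) and TRBV13-3 (Vβ8.1). Vβ8.2 is a common β chain of conventional CD4+ and CD8+ T cells, is the predominant β chain of mouse natural killer T cells, and is bound by the superantigen staphylococcal enterotoxin B.

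Trbv13-2 lies at 41121396 to 41121832 of chromosome 6 in RefSeq's annotation of GRCm38.p6, where it is listed as a V segment with the synonym Tcrb-V8.2. Trbv13-1 (start 41116036) precedes it and Trbv13-3 (start 41130147) follows it. Trbd1 (start 41533201) and the first J cluster (Trbj1-1 starts at 41533864) lie further along, and Trbd2 (start 41542163) and the second J cluster (Trbj2-1 starts at 41542754) come last. The part of TRBV13-2 that enters CDR3 decides how these receptors begin, and is printed here as it was read in 98.0% of the 5011 TRBV13-2 rearrangements whose V part was listed as ending exactly at the germline end. It starts at the conserved cysteine codon, and capitals mark the bases that follow the first 3 codons.
TRBV13-2 germline part of CDR3: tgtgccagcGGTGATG
Read in frame these 16 bases give the residues C, A, S, G and D, with 1 base left over.

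Mice deficient in Vsig4 (Vsig4-/-, v4 ko in the titles) were set against wild-type mice, with 2 libraries each. Vsig4 encodes a complement receptor of macrophages that is best known from liver Kupffer cells. All 4 libraries came from DAPI-negative CD45+ CD3+ CD8+ cells of collagenase-digested liver 14 days after the MC38 cells were injected. The labels give no strain, age or sex and do not describe the Vsig4 allele. It is not stated whether same-genotype libraries represent separate animals. The p-values therefore cover only the variation among these 4 samples, which may be technical. The tables hold TRB sequences alone, so neither the sort markers nor loss of Vsig4 was checked.

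The libraries held 1000179 and 1269480 counts in Vsig4-deficient mice, against 916335 and 901567 counts in wild-type mice. In-frame TRBV13-2 took 218384 and 249128 of these counts in Vsig4-deficient libraries 1 and 2 and 189226 and 167170 counts in wild-type libraries 1 and 2. The member clonotypes numbered 5722 and 10028 in Vsig4-deficient mice and 6056 and 9150 in wild-type mice. Neither labels nor headers say whether a count is a read or a molecule, and intervals and floors on counts cover counting error only. With 2 libraries per genotype a two-sided exact permutation test of a single value cannot go below p = 0.333, and a test of 4 differences within libraries cannot go below p = 0.125, so neither can pass 0.05.

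TRBV13-2 made up 12.2% (95% Wilson interval 11.9 to 12.5) and 14.3% (14.0 to 14.6) of in-frame clonotypes in the Vsig4-deficient libraries. It made up 12.7% (12.4 to 13.0) and 12.4% (12.2 to 12.6) in the wild-type libraries. Vsig4-deficient library 1 lay lowest of the 4 and Vsig4-deficient library 2 highest, so the genotypes overlapped. The log2 ratio of Vsig4-deficient over wild-type was 0.07 ± 0.10 (SE), and edgeR's quasi-likelihood test with Benjamini-Hochberg adjustment gave adjusted p = 0.609. That test called 0 of 23 V segments (0%), none reached an unadjusted p of 0.05 (0 segments), and DESeq2 made 0 calls. Vsig4-deficient library 1 decided this value: without it the log2 ratio was 0.19 with adjusted p = 1.91e-06, in a fit with 13 calls. Without Vsig4-deficient library 2 the log2 ratio was -0.05. Fits with a lone library assume that it varies as much as the other genotype.

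Weighted by counts, TRBV13-2 took a larger share of the repertoire than its share of clonotypes. It held 22.8% and 20.3% of in-frame counts in Vsig4-deficient libraries, against 21.6% and 19.5% in wild-type libraries. The genotypes interleaved, and the log2 ratio was 0.07 ± 0.21 (SE; edgeR adjusted p = 0.866). By counts edgeR called 0 of 24 V segments (0%) and DESeq2 called 1, TRBV14, while 4 segments had an unadjusted edgeR p under 0.05. Leaving out Vsig4-deficient library 1 (-0.02) or wild-type library 2 (-0.01) turned the sign of the TRBV13-2 value. The share was also taken without the 10 largest TRBV13-2 clonotypes of each library. TRBV13-2 then held 13.1% and 14.6% of the remaining counts in Vsig4-deficient libraries, against 20.3% and 18.9% in wild-type libraries. Those 10 held 49.1% and 32.7% of TRBV13-2 counts in Vsig4-deficient libraries, against 7.62% and 3.75% in wild-type libraries. Large clonotypes of other V segments were kept, so the lower share in Vsig4-deficient libraries follows from the size of the 10 left out. It is not a separate result, and the difference was not tested.

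Counts per clonotype were higher for TRBV13-2 than for the other V segments in every library, by median and by mean. The median TRBV13-2 clonotype had 12 and 4 counts in Vsig4-deficient libraries, where the median of the other V segments was 5 and 2. In wild-type libraries it had 17 and 12 counts, where the others had 6 and 5. The mean count of TRBV13-2 clonotypes over that of the other V segments was 2.13 and 1.53 in Vsig4-deficient libraries and 1.89 and 1.71 in wild-type libraries. TRBV13-2 ranked 2, 3, 2 and 2 by mean count among the 14 V segments with at least 1000 clonotypes in each library, so by mean it was not the highest in any library. By median count it was the highest of the 14 in Vsig4-deficient library 1 and wild-type library 1, shared the highest median in Vsig4-deficient library 2 and had 12 counts against a highest median of 13 in wild-type library 2. Over libraries the ratio was 1.80 (geometric mean, above 1 in 4 of 4; two-sided exact permutation p = 0.125, the smallest possible). In bulk RNA more cells in a clone and more TRB RNA per cell cannot be told apart. If a count is a read, more reads per RNA molecule cannot be told apart from them either.

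Out-of-frame TRBV13-2 rearrangements also had more counts than other out-of-frame rearrangements. Their mean count was 1.69 and 1.46 times that of the other V segments in Vsig4-deficient libraries and 1.45 and 1.49 times in wild-type libraries. The geometric mean was 1.52-fold, with TRBV13-2 above the others in 4 of 4 libraries (two-sided exact permutation p = 0.125). The ratio was larger in frame than out of frame in each of the 4 libraries. Out of frame, TRBV13-2 held 19.4% and 19.5% of counts in Vsig4-deficient mice and 15.9% and 18.1% in wild-type mice.

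**Figure D1:**
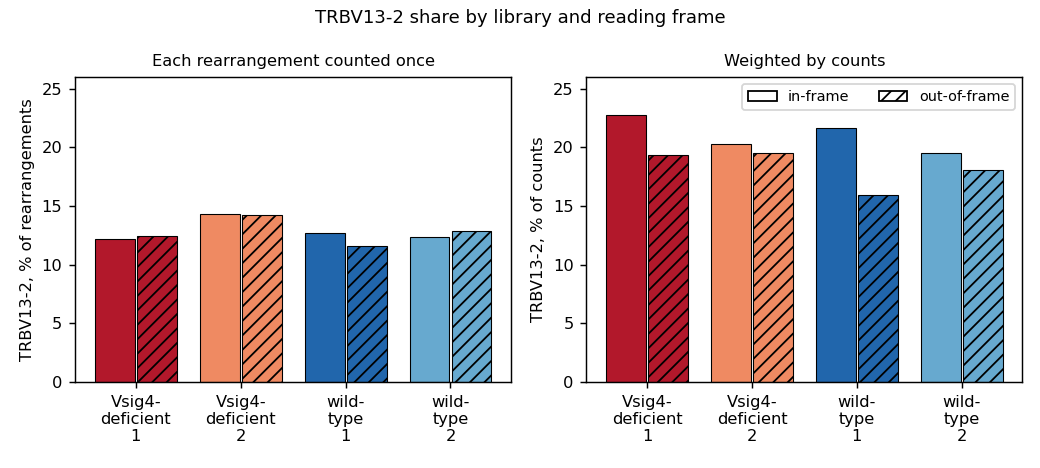
Share of TRBV13-2 (y axis, percent) among rearrangements counted once (left) and among counts (right), in each library, with in-frame as plain and out-of-frame as hatched bars. By rearrangements the paired bars lie close together (12.2% and 12.4% in Vsig4-deficient 1), and by counts the in-frame bar is the higher in all 4 libraries.

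The next comparison asked whether TRBV13-2 is used more or less often in receptors than in rearrangements that were never selected. Out of frame, TRBV13-2 made up 12.4% and 14.3% of rearrangements in Vsig4-deficient libraries and 11.6% and 12.9% in wild-type libraries. In-frame shares were below the out-of-frame share in 2 libraries and above it in the other 2. The log2 ratio of in-frame over out-of-frame share was 0.01 ± 0.04 (SE), and edgeR's quasi-likelihood test with Benjamini-Hochberg adjustment gave adjusted p = 0.811. The same fit called 15 of 24 V segments (62.5%), 7 higher and 8 lower in frame, with sizes between 0.19 and 4.91. TRBV13-2 had the smallest change of the 24 segments, and its sign turned with TMM scaling (-0.01), without clonotypes of 1 count (-0.02) and without wild-type library 1 (-0.03).

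Its family members had other values, and their difference from TRBV13-2 was not tested. TRBV13-3 had a log2 ratio of 0.53 ± 0.05 (SE; edgeR adjusted p = 1.96e-14) and was higher in frame. TRBV13-1 had 0.11 ± 0.05 (SE; edgeR adjusted p = 0.0593) and did not pass the threshold. Segments with far lower in-frame shares included TRBV24 (-4.91) and TRBV22 (-4.73). Of the out-of-frame TRBV13-2 rearrangements, 48 differed by 1 inserted or deleted base from an in-frame CDR3 with at least 20 times the count, and leaving such rows out kept the comparison below the threshold.

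TRBV13-2 joined J segments of the second cluster more often than those of the first. TRBJ2 segments took 68.1% ± 1.08 of in-frame TRBV13-2 clonotypes (SD, n = 4), against 68.6% ± 0.654 of clonotypes of the other V segments. TRBJ2-7 was the most used partner at 19.4% ± 0.624, followed by TRBJ2-5 at 13.2% ± 0.560, TRBJ2-1 at 12.4% ± 0.719, TRBJ1-1 at 9.28% ± 0.304 and TRBJ2-3 at 9.18% ± 0.492 (SD, n = 4). TRBJ2-7 itself was at 19.3% ± 0.673 in the other V segments, with a log2 ratio of 0.01.

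Within this order 6 of 12 J segments (50%) differed between TRBV13-2 and the other V segments by edgeR's quasi-likelihood test with the library as a block, 3 higher and 3 lower. TRBJ1-5 was at 3.16% and 3.32% of TRBV13-2 clonotypes in Vsig4-deficient libraries and at 3.02% and 2.99% in wild-type libraries. With the other V segments it ranged from 2.23% to 2.74%, so the classes did not overlap (log2 ratio 0.38 ± 0.08 SE, adjusted p = 7.10e-05). TRBJ2-5 was higher too, at 12.8% to 14.0% with TRBV13-2 against 11.8% to 12.01% (0.14 ± 0.04 SE, adjusted p = 0.000748). TRBJ2-3 had the highest adjusted p of the 6, at 8.63% to 9.75% with TRBV13-2 against 7.69% to 8.62% (0.15 ± 0.06 SE, adjusted p = 0.0201). Its call was lost with TMM factors (edgeR adjusted p = 0.113) and without Vsig4-deficient library 1 (0.159), Vsig4-deficient library 2 (0.105) or wild-type library 1 (0.0680, each an edgeR adjusted p). Without wild-type library 2 it was kept and TRBJ1-6 was called as well, which made 7 calls.

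The J segments used less often with TRBV13-2 were TRBJ1-3, TRBJ2-1 and TRBJ2-2. TRBJ1-3 was at 3.01% and 2.78% of TRBV13-2 clonotypes in Vsig4-deficient libraries and at 3.14% and 3.36% in wild-type libraries, with 3.85% to 4.06% in the other V segments (log2 ratio -0.38 ± 0.08 SE, edgeR adjusted p = 0.000137). TRBJ2-1 was at 11.4% to 13.1% against 14.1% to 15.6% in the other V segments (-0.23 ± 0.03 SE, edgeR adjusted p = 6.07e-07). Both stood apart from the other V segments in all 4 libraries. TRBJ2-2 ranged from 4.16% to 5.80% against 5.77% to 6.14%, so wild-type library 1 touched the range of the other segments (-0.31 ± 0.07 SE, edgeR adjusted p = 0.000544).

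**Figure D2:**
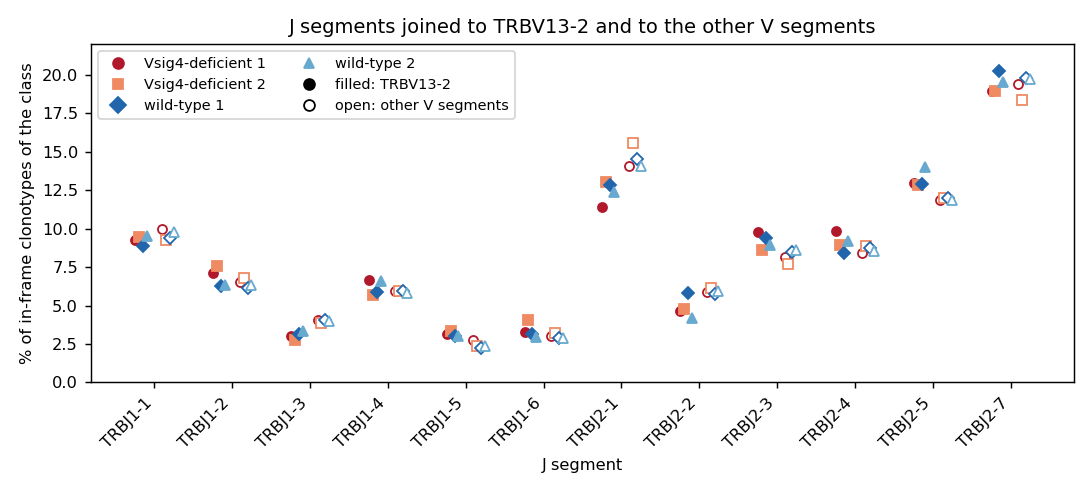
Percent of in-frame clonotypes (y axis) joined to each J segment (x axis), with TRBV13-2 as filled and the other V segments as open symbols, 1 symbol per library. Filled symbols lie above the open ones for TRBJ1-5 and TRBJ2-5 and below them for TRBJ1-3 and TRBJ2-1 in all 4 libraries.

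Unequal J use of this size was not particular to TRBV13-2. When each of the 14 common V segments was set against the rest in the same way, between 4 and 11 J segments were called per V segment, and TRBV13-2 with 6 lay among the lower ones. The segments whose J profile was nearest to that of TRBV13-2 were TRBV29, TRBV13-3 and TRBV12-2, at Jensen-Shannon distances of 0.0625, 0.0628 and 0.0629 over the 12 J segments. These 3 distances are too close to rank, and the most distant of 13 segments, TRBV17, lay at 0.149. Profiles of TRBV13-2 itself in different libraries lay 0.0307 to 0.0453 apart. Weighted by counts, 0 of 12 J segments passed the edgeR test (smallest adjusted p = 0.207), and 1 reached an unadjusted p under 0.05. The log2 ratios of TRBJ1-5 (-0.23) and TRBJ2-3 (-0.11) then had the opposite sign.

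In-frame and out-of-frame TRBV13-2 rearrangements used J segments differently. TRBJ2 segments took 67.2% to 69.6% of in-frame and 72.9% to 79.0% of out-of-frame rearrangements, with no overlap between the frames. Within V segments, edgeR's quasi-likelihood test called 23 of 269 V-J pairs (8.55%) between frames, among them 2 of the 12 TRBV13-2 pairs. TRBV13-2 with TRBJ1-1 was at 9.23% and 9.45% in frame in Vsig4-deficient libraries and 8.87% and 9.55% in wild-type libraries, against 4.52%, 5.98%, 4.34% and 6.75% out of frame in the same order of libraries. Every in-frame value was above every out-of-frame value (log2 ratio 0.73 ± 0.11 SE, adjusted p = 3.07e-08). TRBV13-2 with TRBJ1-5 was at 3.16% and 3.32% in frame in Vsig4-deficient libraries, against 3.39% and 1.99% out of frame, and at 3.02% and 2.99% in frame in wild-type libraries, against 1.08% and 1.21% out of frame. Here Vsig4-deficient library 1 ran the other way, and the out-of-frame shares rest on 21, 14, 6 and 12 rearrangements (0.75 ± 0.19 SE, edgeR adjusted p = 0.00224). DESeq2 called TRBJ1-1 (adjusted p = 7.87e-05) but not TRBJ1-5 (adjusted p = 0.114), and without wild-type library 2 edgeR again called TRBJ1-1 alone (adjusted p = 0.00459).

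Between genotypes J choice of TRBV13-2 receptors gave no call. Of 259 V-J pairs edgeR's quasi-likelihood test called 0 (0%), DESeq2 made 0 calls, and 20 pairs had an unadjusted p under 0.05. Of those 20, 2 were among the 12 TRBV13-2 pairs. TRBJ1-2 took 7.10% and 7.56% of TRBV13-2 clonotypes in Vsig4-deficient libraries, against 6.29% and 6.33% in wild-type libraries (log2 ratio 0.22 ± 0.07 SE, edgeR adjusted p = 0.402). TRBJ1-6 took 3.30% and 4.07% in Vsig4-deficient libraries, against 3.17% and 2.94% in wild-type libraries (0.31 ± 0.10 SE, edgeR adjusted p = 0.402). The genotypes did not overlap for either of these J segments, which were singled out after their values were seen. Without Vsig4-deficient library 1 both were called, with log2 ratios of 0.26 (edgeR adjusted p = 0.0323) and 0.42 (edgeR adjusted p = 0.00140). The most used partners were nearer to 0, with log2 ratios of -0.07 for TRBJ2-7, -0.07 for TRBJ2-5, -0.03 for TRBJ2-1, 0.02 for TRBJ1-1 and -0.00449 for TRBJ2-3.

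The D segment between V and J was called in 76.1% ± 0.674 of in-frame TRBV13-2 clonotypes (SD, n = 4) and in 76.3% ± 0.135 of those of other V segments. Among clonotypes with a TRBJ2 segment and a single D call, TRBD2 made up 71.4% and 70.2% with TRBV13-2 in Vsig4-deficient libraries and 72.6% and 72.7% in wild-type libraries. With the other V segments it made up 60.2% and 59.9% in Vsig4-deficient libraries and 62.1% and 62.1% in wild-type libraries. TRBV13-2 was higher in 4 of 4 libraries, by 10.6 percentage points on average (two-sided exact permutation p = 0.125). The Vsig4-deficient values lay 1.88 points below the wild-type values, without overlap, and the other V segments showed the same order (two-sided exact permutation p = 0.333 for TRBV13-2). By counts in place of clonotypes this difference turned to 3.51 points, higher in Vsig4-deficient libraries.

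D calls are short alignments. Wrong TRBD2 calls can be counted where TRBD2 should be absent, and wrong TRBD1 calls were not measured. Trbd2 lies beyond the first J cluster, so deletional joining cannot bring it to a TRBJ1 segment. TRBD2 was nonetheless the call in 4.55% ± 0.506 of all TRBV13-2 clonotypes with TRBJ1, against 3.43% ± 0.244 with the other V segments (SD, n = 4). TRBD1 was the call in 45.7% and 49.5%, and the remaining clonotypes had no D call or several. Among single D calls, the basis of the TRBD2 shares with TRBJ2 given before, wrong TRBD2 calls thus weigh more. With TRBJ2, in-frame TRBV13-2 clonotypes had TRBD2 in 49.2% ± 1.08 and TRBD1 in 19.4% ± 0.714, against 49.2% ± 3.26 and 23.8% ± 2.85 out of frame (SD, n = 4). The part of miscalled D segments in the difference between V segments was not tested.

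TRBV13-2 kept more of its germline end than the other V segments did on average. The V end was untrimmed, which includes V parts listed with palindromic bases past the germline end, in 35.4% and 34.6% of in-frame TRBV13-2 clonotypes in Vsig4-deficient libraries and in 34.9% and 35.2% in wild-type libraries. The other V segments were untrimmed in 23.5% to 23.9% of in-frame clonotypes. The in-frame classes were far apart, by 11.4 percentage points (higher in 4 of 4 libraries, two-sided exact permutation p = 0.125). Out of frame the gap was smaller, with 31.5% to 36.3% untrimmed for TRBV13-2 against 27.7% to 29.3% for the other V segments. The out-of-frame gap was not tested. V parts listed with palindromic bases made up 20.3% and 19.9% of TRBV13-2 clonotypes in Vsig4-deficient libraries and 20.5% and 20.01% in wild-type libraries, against 12.7% to 12.9% in the other V segments. On average 1.78 bases were trimmed from TRBV13-2, against 2.62 bases from the other V segments. TRBV13-2 was not extreme among the 14 common segments, ranking 4 by untrimmed share, behind TRBV31 (56.2%), TRBV12-2 (39.2%) and TRBV12-1 (38.7%). Among clonotypes with a D call, inserted bases were fewer with TRBV13-2, 2.65 on average against 2.78 in the other V segments (lower in 4 of 4 libraries; two-sided exact permutation p = 0.125). By counts in place of clonotypes it turned to 0.349 bases, higher with TRBV13-2 (two-sided exact permutation p = 1). Neither trimming nor the untrimmed share separated the genotypes. Inserted bases averaged 2.68 and 2.68 in Vsig4-deficient libraries, against 2.63 and 2.62 in wild-type libraries (two-sided exact permutation p = 0.333).

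The germline end was visible in the first residues of the receptors. CASGD, the start that the untrimmed segment encodes, opened 61.4% and 59.3% of in-frame TRBV13-2 clonotypes in Vsig4-deficient libraries and 60.6% and 60.1% in wild-type libraries. The next starts were CASGE at 13.1% ± 0.337, CASGG at 8.78% ± 0.169, CASGA at 3.99% ± 0.190 and CASGP at 2.18% ± 0.161 (SD, n = 4). The order was the same in all 4 libraries. Weighted by counts, CASGD receptors held 80.6% and 69.9% of TRBV13-2 counts in Vsig4-deficient libraries and 64.9% and 61.8% in wild-type libraries. Of the 3 largest TRBV13-2 clonotypes of each library, 6 of 6 began with CASGD in Vsig4-deficient mice and 3 of 6 in wild-type mice. These 3 together held 39.9% and 25.4% of TRBV13-2 counts in Vsig4-deficient libraries, against 4.09% and 1.76% in wild-type libraries. The CASGD share of counts was not taken without them.

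CASGD starts were less frequent among out-of-frame rearrangements, whose first 5 codons were read from the same cysteine. They made up 52.9% and 55.7% there in Vsig4-deficient libraries and 51.9% and 51.1% in wild-type libraries, below every in-frame value. The difference averaged 7.46 percentage points, higher in frame in 4 of 4 libraries (two-sided exact permutation p = 0.125). Among rearrangements with at most 2 V bases trimmed, CASGD was equally frequent, at 81.1% ± 0.481 in frame and 81.1% ± 0.635 out of frame (SD, n = 4). With 0 or 1 base trimmed the germline codon for D is kept, which fixes this start in either frame. Most of the class is thus alike by construction. Only rearrangements with 2 bases trimmed can vary, and they made up 20.6% in frame and 16.9% out of frame. Rearrangements with more than 2 bases trimmed were fewer in frame, 28.6% ± 0.690 against 36.9% ± 2.80 out of frame (SD, n = 4; lower in 4 of 4 libraries, two-sided exact permutation p = 0.125). Within that class CASGD was at 8.61% in frame and 4.45% out of frame. In-frame CDR3 regions were also shorter, at 42.07 bases against 42.82 out of frame, and, with a D call, held fewer inserted bases, 2.65 against 3.05, in 4 of 4 libraries each.

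**Figure D3:**
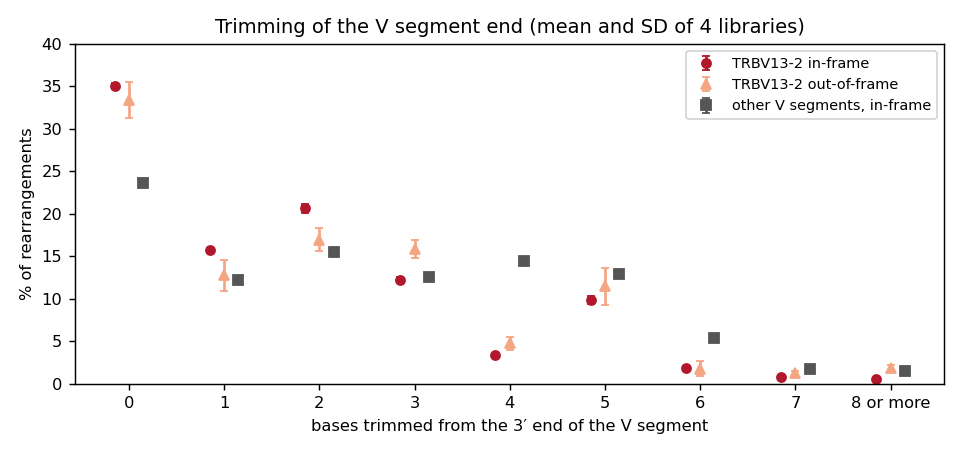
Percent of rearrangements (y axis, mean and SD of 4 libraries) by number of bases trimmed from the V end (x axis), for in-frame TRBV13-2, out-of-frame TRBV13-2 and in-frame rearrangements of the other V segments. TRBV13-2 is untrimmed in 35.02% of in-frame clonotypes, against 33.4% out of frame and 23.7% for the other V segments in frame. The other V segments out of frame (28.5% untrimmed) are not drawn.

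CDR3 loops of TRBV13-2 receptors were spread over a wider range of lengths than those of other V segments. The mean length was 14.03 and 14.02 amino acids in Vsig4-deficient libraries and 14.05 and 14.00 in wild-type libraries, against 13.91 to 13.94 for the other V segments. The SD over clonotypes was 1.57 on average for TRBV13-2 and 1.46 for the other V segments, higher in 4 of 4 libraries (two-sided exact permutation p = 0.125). Among the 14 common segments TRBV31 had the same SD of 1.57, and the other 12 had smaller ones. The family members TRBV13-1 and TRBV13-3 came next at 1.53 each, ahead of TRBV29 at 1.48. Loops of 11 or fewer amino acids made up 6.64% ± 0.176 of TRBV13-2 clonotypes, against 5.40% ± 0.159 in the other V segments. Loops of 17 or more made up 3.84% ± 0.287, against 2.75% ± 0.0560 (SD, n = 4). Each of these shares was higher with TRBV13-2 in 4 of 4 libraries (two-sided exact permutation p = 0.125).

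By single lengths, edgeR's quasi-likelihood test called 12 of 15 lengths (80%), and 9 to 13 with each library left out in turn. TRBV13-2 had the higher share at 9 lengths (8 to 11, 15 to 18 and 20 amino acids) and the lower share at 3 (6, 13 and 14 amino acids). With 13 amino acids the share was 14.5% ± 0.527 in TRBV13-2 and 18.6% ± 0.116 in the other V segments (log2 ratio -0.35 ± 0.03 SE, edgeR adjusted p = 1.03e-12). With 10 amino acids it was 1.62% ± 0.0986 in TRBV13-2 and 0.966% ± 0.0354 in the other V segments (0.75 ± 0.07 SE, edgeR adjusted p = 1.68e-12). With 17 amino acids it was 3.06% ± 0.148 in TRBV13-2 and 2.28% ± 0.0732 in the other V segments (0.44 ± 0.05 SE, edgeR adjusted p = 8.95e-10). The dip at 13 and the excess at 10 and at 17 stood outside the SD between libraries. No TRBV13-2 clonotype of 6 amino acids was seen among 30956, which allows a share of up to 0.00969%. The call at 6 amino acids was lost without clonotypes of 1 count (edgeR adjusted p = 0.0599). It was also lost without Vsig4-deficient library 2 or wild-type library 1.

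The split of these calls depends on scaling, because shares of lengths sum to a whole. With library totals it was 9 higher and 3 lower, with TMM factors 5 higher and 5 lower, and with DESeq2's size factors 4 higher and 6 lower. TMM moved the median log2 ratio of all lengths by -0.23 and DESeq2 by -0.29. The values at 11 and 15 amino acids turned to the opposite sign under both, and that at 16 under DESeq2. The directions at 8, 9, 10, 13, 14, 17 and 18 amino acids were the same under all 3 scalings. At 17 amino acids DESeq2 gave a log2 ratio of 0.14 and the call was lost (adjusted p = 0.0950). At 12 amino acids, not called with library totals, TRBV13-2 was called lower with TMM factors (-0.27, edgeR adjusted p = 1.46e-08) and by DESeq2 (-0.33, adjusted p = 3.25e-09). The call at 20 amino acids was lost with TMM factors, by DESeq2 and without Vsig4-deficient library 1, Vsig4-deficient library 2 or wild-type library 1. Mean length did not separate the genotypes (difference -0.00345 amino acids; two-sided exact permutation p = 1).

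**Figure D4:**
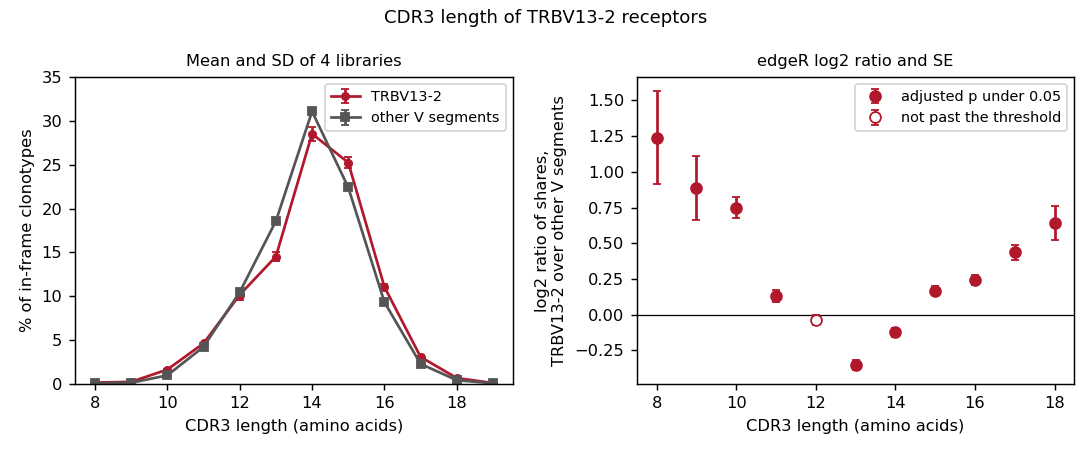
Left, percent of in-frame clonotypes (y axis, mean and SD of 4 libraries) by CDR3 length in amino acids (x axis) for TRBV13-2 and the other V segments. Right, the edgeR log2 ratio of shares with its SE by length, with filled symbols past the threshold. TRBV13-2 lies lower at 13 amino acids (14.5% against 18.6%) and higher at 10 (1.62% against 0.966%).

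Clone sizes of TRBV13-2 receptors lay apart in the genotypes. The 10 largest TRBV13-2 clonotypes held 49.1% and 32.7% of in-frame TRBV13-2 counts in Vsig4-deficient libraries, against 7.62% and 3.75% in wild-type libraries. The means were 40.9% ± 11.5 and 5.68% ± 2.74 (SD, n = 2 each), a difference of 35.2 percentage points that exceeded the spread within either genotype (two-sided exact permutation p = 0.333, the smallest possible). Clonality, 0 for an even and 1 for a monoclonal set, was 0.365 and 0.293 in Vsig4-deficient libraries, against 0.0944 and 0.0576 in wild-type libraries. The 13 and 174 largest clonotypes made up 50% of TRBV13-2 counts in Vsig4-deficient libraries, against 780 and 1605 in wild-type libraries. The effective number of TRBV13-2 clonotypes was 243 and 672 in Vsig4-deficient libraries, against 2661 and 5413 in wild-type libraries. No value of one genotype overlapped the other in any of these measures.

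The largest clonotype alone held 24.0% and 19.2% of TRBV13-2 counts in Vsig4-deficient libraries, against 1.51% and 0.662% in wild-type libraries. Clonotypes above 0.1% of all in-frame counts numbered 10 and 13 in Vsig4-deficient libraries and 7 and 2 in wild-type libraries. They held 49.1% and 34.5% of TRBV13-2 counts in Vsig4-deficient libraries, against 6.42% and 1.31% in wild-type libraries. The other V segments together had 61 and 47 such clonotypes in Vsig4-deficient libraries and 23 and 19 in wild-type libraries. These held 39.3% and 40.1% of the counts of other V segments in Vsig4-deficient libraries, against 13.2% and 7.87% in wild-type libraries. TRBV13-2 thus lay above the other V segments in Vsig4-deficient library 1 and below them in the other 3 libraries.

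Other V segments, taken as a median, showed the same order of genotypes with a smaller gap. Gaps of single V segments were not compared. The median over the 13 other common V segments of the share of the 10 largest was 32.5% and 30.5% in Vsig4-deficient libraries, against 11.3% and 10.7% in wild-type libraries. TRBV13-2 lay above that median by 16.6 and 2.29 percentage points in Vsig4-deficient libraries and differed from it by -3.64 and -6.94 points in wild-type libraries. The difference between genotypes in this gap was not tested. Over all 4 libraries TRBV13-2 did not stand apart from the median (2.08 points; two-sided exact permutation p = 0.875), and without Vsig4-deficient library 1 the value was -2.76 points. V segments of unequal size were not drawn to a common depth, and the effect of set size on this gap was not tested.

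**Figure D5:**
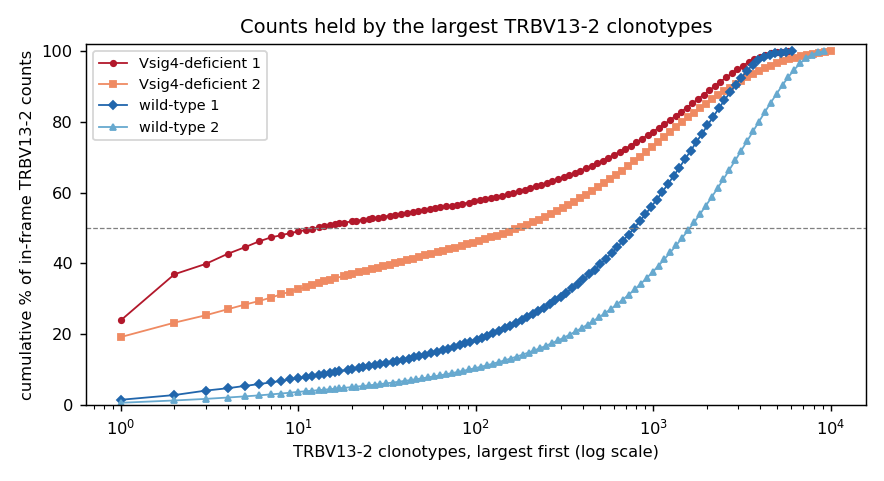
Cumulative percent of in-frame TRBV13-2 counts (y axis) held by the TRBV13-2 clonotypes of each library, ordered from the largest (x axis, log scale), with a dashed line at 50%. The Vsig4-deficient curves start at 24.0% and 19.2% and reach 50% after 13 and 174 clonotypes, the wild-type curves after 780 and 1605.

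The largest clonotypes show how the germline start combines with different J segments and junctions. Their CDR3 nucleotides are printed from the cysteine codon to the last codon of CDR3, with capitals for the bases between the V-derived and the J-derived part. A V-derived part that runs past the germline end printed above carries bases that the tables count as palindromic.
Vsig4-deficient 1, largest, TRBJ2-5: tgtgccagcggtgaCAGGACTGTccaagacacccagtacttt
Vsig4-deficient 1, next, TRBJ2-4: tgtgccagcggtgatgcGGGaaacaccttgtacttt
Vsig4-deficient 2, largest, TRBJ2-5: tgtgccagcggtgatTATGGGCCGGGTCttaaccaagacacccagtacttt
Vsig4-deficient 2, next, TRBJ1-4: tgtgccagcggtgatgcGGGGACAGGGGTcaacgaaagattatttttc
wild-type 1, largest, TRBJ2-4: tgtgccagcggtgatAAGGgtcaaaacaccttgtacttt
wild-type 2, largest, TRBJ1-2: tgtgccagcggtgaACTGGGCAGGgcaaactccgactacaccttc
In Vsig4-deficient library 1 the largest, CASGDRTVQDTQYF, had 52404 counts (5.47% of all in-frame counts) and the next, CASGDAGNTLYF, had 28309 counts (2.95%). In Vsig4-deficient library 2 the largest had 47928 counts (3.90%) and the next 10084 counts (0.821%). Both of the largest receptors joined TRBJ2-5 with different junctions of 9 and 13 bases. In wild-type mice the largest were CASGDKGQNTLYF with 2858 counts (0.327%) in library 1 and a TRBJ1-2 receptor of 15 amino acids with 1107 counts (0.129%) in library 2.

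The third-ranked clonotypes were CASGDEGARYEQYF with 6372 counts in Vsig4-deficient library 1 and a TRBJ1-3 receptor of 15 amino acids with 5203 counts in Vsig4-deficient library 2. In wild-type library 1 the next were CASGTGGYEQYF with 2519 counts and a TRBJ1-4 receptor with 2370 counts. In wild-type library 2 they were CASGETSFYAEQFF with 1085 counts and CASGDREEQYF with 744 counts. These sizes fell off slowly in wild-type mice and steeply in Vsig4-deficient mice.

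Large clonotypes were also listed at low counts in other libraries. The 3 largest of Vsig4-deficient library 1 had 1110, 621 and 104 counts in Vsig4-deficient library 2, or 1.65%, 1.71% and 1.27% of their share, and at most 11 counts in a wild-type library. The largest of Vsig4-deficient library 2 had 70 counts in Vsig4-deficient library 1, or 0.187% of its share. The largest of wild-type library 1 had 128 counts in wild-type library 2 (4.57% of its share) and at most 8 counts in a Vsig4-deficient library. Whether these low listings come from separate cells was not tested. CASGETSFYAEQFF differed from them, with 90 and 399 counts in Vsig4-deficient libraries and 160 and 1085 counts in wild-type libraries.

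TRBV13-2 receptors were shared between libraries more often than receptors of other V segments. Of 21152 TRBV13-2 receptors defined by CDR3 amino acids and J segment, 394 were listed in all 4 libraries (1.86%), against 1170 of 165150 for the other V segments (0.708%). The 394 were 7.61% and 4.41% of the TRBV13-2 receptors in Vsig4-deficient libraries and 7.19% and 4.95% in wild-type libraries. For the other V segments the shares were 2.98% and 2.08% in Vsig4-deficient libraries and 2.98% and 1.94% in wild-type libraries. TRBV13-2 was higher in 4 of 4 libraries, by 3.55 percentage points on average (two-sided exact permutation p = 0.125). The excess was 3.42 points without clonotypes under 1% of their share in another library. The genotypes overlapped.

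More nucleotide sequences stood behind each TRBV13-2 receptor as well, which is called convergent recombination. There were 1.11 and 1.12 sequences per receptor in Vsig4-deficient libraries and 1.11 and 1.15 in wild-type libraries, against 1.05 to 1.07 for the other V segments (higher in 4 of 4 libraries; two-sided exact permutation p = 0.125). Up to 12 nucleotide sequences encoded 1 receptor in a library. Clonotypes of the 394 shared receptors were shorter than the rest, with 13.3 amino acids in each library against 14.1. With a D call they held 1.08 to 1.23 inserted bases against 2.75 to 2.84, and 46.6% to 50% were untrimmed against 33.2% to 34.0%. They used TRBJ2-7 in 26.6% to 28.0% of clonotypes against 17.9% to 19.5%.

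The receptors with the highest minimum share over the 4 libraries show junctions that need few added bases. The most abundant nucleotide sequence of each is printed, with capitals as before.
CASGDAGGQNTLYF, TRBJ2-4: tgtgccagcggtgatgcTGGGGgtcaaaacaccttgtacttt
TRBJ2-3 receptor of 15 amino acids: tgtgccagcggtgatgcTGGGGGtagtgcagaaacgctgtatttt
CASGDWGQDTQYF, TRBJ2-5: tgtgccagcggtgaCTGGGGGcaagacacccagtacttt
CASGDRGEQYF, TRBJ2-7: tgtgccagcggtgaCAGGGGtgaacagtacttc
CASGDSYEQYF, TRBJ2-7: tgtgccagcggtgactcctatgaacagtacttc
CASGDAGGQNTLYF had 178 and 217 counts in Vsig4-deficient libraries, against 212 and 423 counts in wild-type libraries, from 11 nucleotide sequences. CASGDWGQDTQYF had 157 and 185 counts in Vsig4-deficient libraries, against 248 and 204 counts in wild-type libraries, from 7 sequences. The TRBJ2-3 receptor had 164 and 289 counts in Vsig4-deficient libraries, against 492 and 745 counts in wild-type libraries, from 20 sequences. The Vsig4-deficient libraries were lower without overlap for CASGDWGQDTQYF and the TRBJ2-3 receptor. As a share of in-frame counts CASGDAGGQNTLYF was too, at 0.0186% and 0.0177% in Vsig4-deficient libraries, against 0.0242% and 0.0493% in wild-type libraries. Counts and shares of a receptor fall where large clonotypes take more of a library, as they did in Vsig4-deficient libraries. No test was run on single receptors.

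Both remaining receptors joined TRBJ2-7. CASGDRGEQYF had 171 and 2130 counts in Vsig4-deficient libraries, against 149 and 114 counts in wild-type libraries, so Vsig4-deficient library 2 stood far above the others. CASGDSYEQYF, whose printed sequence has 0 bases between the V and J parts, had 121 and 177 counts in Vsig4-deficient libraries, against 304 and 112 counts in wild-type libraries.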

How the data were processed

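Bulk TRB libraries from total RNA of 4 sorted CD8+ T-cell samples were analysed, 2 Vsig4-deficient and 2 wild-type, grouped by the labels' genotype. Per the file headers, the authors deposited a clone count, a clone fraction and a lowest CDR3 quality score for each CDR3 sequence with its V, D and J hits. The deposited counts are whole numbers without normalization, and the deposited fraction equalled the count over the table's sum in every row (within 1e-08). The deposited quality score ran from 25 to 37 and was used in an alternative alone. The clonotype assembler was not given in the sources used here. Genome build mm10 is named per the submitters' processing notes. Positions come from RefSeq's GRCm38.p6 annotation.

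Trimmed V bases and, for clonotypes with a D call, inserted bases on both sides of D were computed from the reference points that the tables list per row. Compositions were tested with edgeR 4.0.16 in R 4.3.3 (quasi-likelihood, offsets from totals, at least 10 rearrangements per feature, Benjamini-Hochberg over all features, threshold 0.05), and each SE was derived from the log2 ratio and its F statistic. The library was a block within libraries, and V-J pairs had V totals as offsets. DESeq2 1.42.0 was an alternative. Single values were compared with exact permutation tests (9 measures, 18 comparisons, no adjustment, since none can pass) with SciPy 1.17.1 and pandas 2.3.3 under Python 3.11.15 (numpy 2.4.6, matplotlib 3.10.9). Alternatives were TMM factors, DESeq2, no filter on low features, library totals as offset, weighting by counts, 10 draws to equal depth, leaving out clonotypes of 1 count, tied V hits, rows of lower quality, out-of-frame rows near a large in-frame CDR3, or clonotypes far rarer than in another library, the replicate number as a block and each library left out. The edgeR step was tested on simulated data.

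Named items were J segments past the threshold or else the 5 most used, the 5 commonest starts, the 3 largest clonotypes per library, the 5 receptors with the highest minimum share over 4 libraries and the 3 V segments nearest in J usage. Members, lists and tests were chosen with earlier results of these data known. Same-numbered libraries of the genotypes are 2 pairs that share only a number, so the fits above carry no block for it.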

Additional observations from a re-analysis of the deposited data

Results flagged for a closer look

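The share of TRBV13-2 counts in the 10 largest TRBV13-2 clonotypes, minus the median of the other common V segments, was above 0 in both Vsig4-deficient libraries (16.6 and 2.29 percentage points) and below 0 in both wild-type libraries (-3.64 and -6.94 points). The means differed by 14.7 points. Clonality minus the same median ran the same way, at 0.135 and 0.0485 in Vsig4-deficient libraries and -0.00448 and -0.0260 in wild-type libraries, a difference of 0.107. Each was singled out because all libraries of a genotype lay on the same side of 0 and the genotypes on opposite sides, and neither difference between genotypes was tested. By counts held in clonotypes above 0.1%, TRBV13-2 lay below the other V segments in Vsig4-deficient library 2 (34.5% against 40.1%). The split thus depended on the measure.

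In-frame TRBV13-2 rearrangements with a stop codon entered no comparison. There were 101 of them, with 22 and 33 in Vsig4-deficient libraries (109 and 128 counts) and 14 and 32 in wild-type libraries (142 and 100 counts), above the 3 counts that a count of 0 allows in each library. Their median was 1 to 2 counts.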

How the results depend on the processing

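Over 25 results and 222 alternatives, 190 kept direction and side of the threshold or left a count of calls within 1.5 times (14 of these counts changed within that range), 27 turned the sign, 4 moved a count of calls by more and 1 passed the threshold. The log2 ratio of in-frame over out-of-frame share of TRBV13-2 turned to -0.0119 with TMM factors and to -0.0166 without clonotypes of 1 count. The 6 J segments called against other V segments became 0 when weighted by counts, and the 2 TRBV13-2 pairs called between frames became 1 by DESeq2, which called 10 in place of 23 pairs over all V segments. Among differences Vsig4-deficient minus wild-type, leaving out clonotypes of 1 count gave 0.000548 amino acids for mean CDR3 length, -0.0290 for the log2 ratio of counts per clonotype and 0.202 points for the share of receptors in all 4 libraries. Leaving out rows below the highest quality gave 0.00516 points for the untrimmed share and -0.00275 for counts per clonotype. Weighting by counts gave 3.51 points for the TRBD2 share, 0.269 amino acids for length, -0.189 trimmed bases and 28.0 points for receptors in all 4 libraries (6.19 without those among the 3 largest clonotypes of any library, chosen after seeing the data), and 0.349 inserted bases for TRBV13-2 minus other V segments. The cause was not tested. TMM and DESeq2 moved the median V segment by counts by 0.22 and 0.32 (log2).

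With each library left out in turn, the TRBV13-2 log2 ratio between genotypes ran from -0.0461 to 0.187 by clonotypes and from -0.0191 to 0.149 by counts, and between frames from -0.0277 to 0.0363. Called J segments ran from 5 to 7 and called lengths from 9 to 13. Called TRBV13-2 pairs ran from 0 to 2 between genotypes and from 1 to 2 between frames. The gap of the 10 largest to other V segments ran from -2.76 to 5.08 points. Differences between genotypes ran from -0.237 to 0.245 for counts per clonotype (log2), -0.484 to 0.350 points for the untrimmed share, -0.0246 to 0.0177 amino acids for length, -0.0240 to 0.0388 trimmed bases and -3.05 to 2.10 points for receptors in all 4 libraries, which became those in all 3 that remained.

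With the replicate number as a block the log2 ratio of TRBV13-2 was 0.07 by clonotypes (edgeR adjusted p = 0.850) and 0.07 by counts (edgeR adjusted p = 0.941), and 0 TRBV13-2 pairs were called, so the block changed no call. Deviations of same-numbered libraries correlated at 0.155 over 23 V segments and 0.126 over 217 V-J pairs.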

Other observations

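TRBV13-2 receptors were also shared between pairs of libraries. The Vsig4-deficient libraries had 1809 TRBV13-2 receptors in common, which were 34.9% of those in library 1 and 20.3% of those in library 2. The wild-type libraries had 1714 in common, 31.3% of library 1 and 21.5% of library 2. Between genotypes, 829 to 1715 were shared. Vsig4-deficient library 1 shared 16.02% and 21.4% of its receptors with wild-type libraries 1 and 2, below its 34.9% within genotype. Wild-type library 1 shared 15.1% and 23.5% with Vsig4-deficient libraries 1 and 2, below its 31.3%. For Vsig4-deficient library 2 the shares were 14.4% and 19.2%, against 20.3% within genotype. For wild-type library 2 they were 13.9% and 21.5%, against 21.5%, so its higher value equalled that within genotype. These differences were not tested. Receptors encoded by more than 1 nucleotide sequence made up 8.10% and 8.77% of TRBV13-2 receptors in Vsig4-deficient libraries and 7.92% and 10.2% in wild-type libraries, against 4.50% and 5.38% and against 4.74% and 5.90% for the other V segments of the same libraries. Counts of the 394 receptors listed in all 4 libraries took 56.4% and 31.2% of TRBV13-2 counts in Vsig4-deficient libraries, against 17.6% and 14.1% in wild-type libraries. Of the 394, 7 were among the 3 largest clonotypes of some library, and these alone took 40% and 20.2% of TRBV13-2 counts in Vsig4-deficient libraries, against 2.72% and 0.719% in wild-type libraries. Without these 7 the others took 27.3% and 13.8% of the remaining counts in Vsig4-deficient libraries, against 15.3% and 13.4% in wild-type libraries, and the genotypes overlapped. Leaving them out was chosen after seeing the data.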
